A study of Mus musculus with 6 samples.

Results

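The cytosolic ribosomal protein genes were taken as all mouse protein-coding genes whose symbol is Rpl or Rps directly followed by a digit, without symbols holding "-ps" and without the Rps6k kinases. The rule found 85 of 21883 protein-coding genes. Of these, 43 encode core proteins of the large subunit, 30 encode core proteins of the small subunit, and 12 are paralogues, retrocopies or genes that share the name alone (Rpl3l, Rpl7l1, Rpl10l, Rpl22l1, Rpl32l, Rpl36al, Rpl37rt, Rpl39l, Rps19bp1, Rps23rg1, Rps27l and Rps27rt). A peak, that is a stretch of open chromatin in the study's consensus set, was assigned to a gene when it overlapped the gene body, or lay within 50 kb with that gene as the nearest protein-coding gene. The 85 genes held 356 of 182166 peaks, with a median of 3 and at most 15 per gene (Rpl11). Within 1 kb of either end of the gene lay 168 of them, called gene-end peaks here, and the other 188 lay elsewhere. No peak was assigned to Rpl10l, Rpl32l, Rps25 or Rps27rt, and 7 further genes (Rpl17, Rpl37rt, Rpl39l, Rpl3l, Rps19bp1, Rps2 and Rps23rg1) had peaks but none at a gene end, which left 74 genes with a gene-end peak.

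The peaks came from ATAC-seq, in which a transposase cuts and tags accessible DNA, of granulocyte-monocyte progenitors (GMPs) sorted by FACS from bone marrow of untreated C57BL/6 mice. GFI1, a zinc-finger repressor that steers these progenitors towards neutrophils, is of human origin in both genotypes: GFI1 KI/KI mice (GFI1-KI) carry human GFI1 in place of mouse Gfi1, and GFI1 KD/KD mice (GFI1-KD) express it at 10-20%. There were 3 libraries of each genotype, and the sources used here do not give the animals' age, how GFI1 was lowered, or whether a library stands for 1 animal or several. The p-values below thus rest on the variation among these libraries, some of which could be technical.

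Ribosomal proteins and ribosomal RNA build the subunits that translate all cellular mRNA, and their genes are among the most highly transcribed in dividing cells. Their promoters are typically short, GC-rich and without a canonical TATA box, and transcription starts at a C within a run of pyrimidines, which gives the mRNA a terminal oligopyrimidine tract through which its translation is controlled. In blood, loss of 1 copy of some of these genes causes Diamond-Blackfan anaemia, a failure of red cell production, and free ribosomal proteins such as Rpl5 and Rpl11 bind the p53 regulator Mdm2.

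RefSeq promoters on build GRCm38.p6, which carries the same coordinates as mm10, were matched by symbol for 66 of the 85 genes. The windows below run from 75 bases before the annotated start to 25 bases from the start onwards, 5′ to 3′ on the gene's strand. Capitals mark letters searched on both strands: AAGATGG (YY1-like), CCGGAAG (ETS/GABP-like), GGGCGG (SP1-like) and TCGCGA (ZBED1-like, its own reverse complement), of which none contains another. A match is a run of letters and not a bound site. These 4 windows lie in the start peaks that were lower in GFI1-KD by the test below and have a RefSeq entry.
Rpl22l1 (chr3:28805433-28805532, plus strand): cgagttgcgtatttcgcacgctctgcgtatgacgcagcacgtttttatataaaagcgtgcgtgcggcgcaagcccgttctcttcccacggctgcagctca
Rps23 (chr13:90923047-90923146, plus strand): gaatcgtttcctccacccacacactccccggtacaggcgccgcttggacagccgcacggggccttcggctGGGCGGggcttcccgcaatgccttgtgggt
Rpl37 (chr15:5116538-5116637, plus strand): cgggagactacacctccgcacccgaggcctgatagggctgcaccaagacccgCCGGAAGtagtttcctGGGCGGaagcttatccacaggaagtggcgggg
Rpl15 (chr14:18270962-18271061, minus strand): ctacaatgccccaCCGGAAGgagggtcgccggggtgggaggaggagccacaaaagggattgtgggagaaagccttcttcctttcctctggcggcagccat
The next 5 are from open promoters with some of the highest levels per kb (Rpl13a, Rps19 and Rps21) and from promoters with several of the letters that were more frequent among the members (Rpl26 and Rps15a).
Rpl13a (chr7:45128721-45128820, minus strand): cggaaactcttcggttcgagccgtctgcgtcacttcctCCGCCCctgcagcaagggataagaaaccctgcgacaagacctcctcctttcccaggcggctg
Rps19 (chr7:24884517-24884616, plus strand): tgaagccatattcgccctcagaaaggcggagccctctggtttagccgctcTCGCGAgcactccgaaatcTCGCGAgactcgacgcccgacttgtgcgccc
Rps21 (chr2:180257304-180257403, plus strand): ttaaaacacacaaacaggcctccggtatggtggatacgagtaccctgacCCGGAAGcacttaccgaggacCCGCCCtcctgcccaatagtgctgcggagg
Rpl26 (chr11:68901491-68901590, plus strand): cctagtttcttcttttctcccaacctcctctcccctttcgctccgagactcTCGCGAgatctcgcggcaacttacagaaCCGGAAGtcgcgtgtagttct
Rps15a (chr7:118116123-118116222, minus strand): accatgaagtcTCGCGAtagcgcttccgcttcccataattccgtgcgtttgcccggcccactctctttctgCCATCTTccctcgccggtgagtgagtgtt

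Reads in peaks numbered 16022763 to 27741446 per library. Values are normalized reads per peak, and 3 reads correspond to 2.27 to 3.70 normalized reads. Of the 10 GMP markers 9 had a gene-end peak (Fcgr3 had none), with a mean of 673 normalized reads per marker, against 292 for mature neutrophil, 254.8 for erythroid, 232 for megakaryocyte, 166 for T cell, 135 for mature macrophage and 106 for B cell markers. No gene-end peak was found for Gata1, Hbb-b1, Slc4a1 and Alas2 (4 of 8 erythroid markers), Mmp9, Marco, Ms4a1, Cd3g or Cd8a. Summed over each list, megakaryocyte markers (6 of 6 with a peak) ranged from 1477 to 1749 in the GFI1-KI libraries and from 1089.8 to 1245 in the others, and erythroid markers from 2099.9 to 2281 and from 1814 to 1972. T cell markers (5 of 7) lay at 1200.2 to 1245.5 and 1034 to 1193. Neutrophil markers (7 of 8) lay at 2039.6 to 2361 and 2355 to 2729.55, and the lists of GMP (6628 to 7045 and 6509 to 6775), macrophage (6 of 7, 905 to 997 and 852 to 976) and B cell markers (5 of 6, 625 to 701 and 563 to 701) overlapped as well. Their part in the differences below was not tested, and in a sorted population fewer cells with an open site and a less open site per cell cannot be told apart.

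Ribosomal protein genes were open at their ends in nearly every core member. A gene-end peak was present for 42 of 43 large-subunit genes (97.7%) and 28 of 30 small-subunit genes (93.3%), but for 4 of the 12 paralogues, retrocopies and name-alone genes (33.3%), against 67.7% of all protein-coding genes. Taking the peak with the most reads of each gene, the median level was 979.7 normalized reads per kb of peak in the members and 596 over all genes, and the median member stood at percentile 75.4. By subunit the median was 968 for large-subunit genes and 1136 for small-subunit genes. Within each genotype the libraries varied little, with a median coefficient of variation of 5.51% against 7.28% over all genes. The members' peaks also held more reads (median of 652 against 407 normalized reads). Among gene-end peaks averaging 250 normalized reads or more, the coefficients were closer, at 5.38% in the members and 5.89% in all.

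Levels differed widely among members. The most open per kb was Rpl13a, a large-subunit protein with a separate role in inflammatory translation control, at 2282 normalized reads per kb, followed by Rps19 at 2054. Rps21 (1742) and Rpl27 (1741) were also among the 6 highest, and the levels of these genes lay closer together than the libraries of either gene. The lowest were Rps27l at 119.6, Rpl19 at 384, Rpl37a at 453 and Rps4x at 456 normalized reads per kb. For Rps27l and Rpl19 that peak was not the promoter's: RefSeq begins the body upstream of the annotated start in the promoter table, and the strongest peaks over that start lay more than 1 kb from either end, with a mean of 597 normalized reads for Rps27l and 248 for Rpl19. Rps2, Rpl18 and Rpl22 had such peaks too, with means of 987, 419 and 1164, and these count among the other peaks here. The strongest gene-end peaks of Rpl18 and Rpl22 were thus not over their starts.

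**Figure D1:**
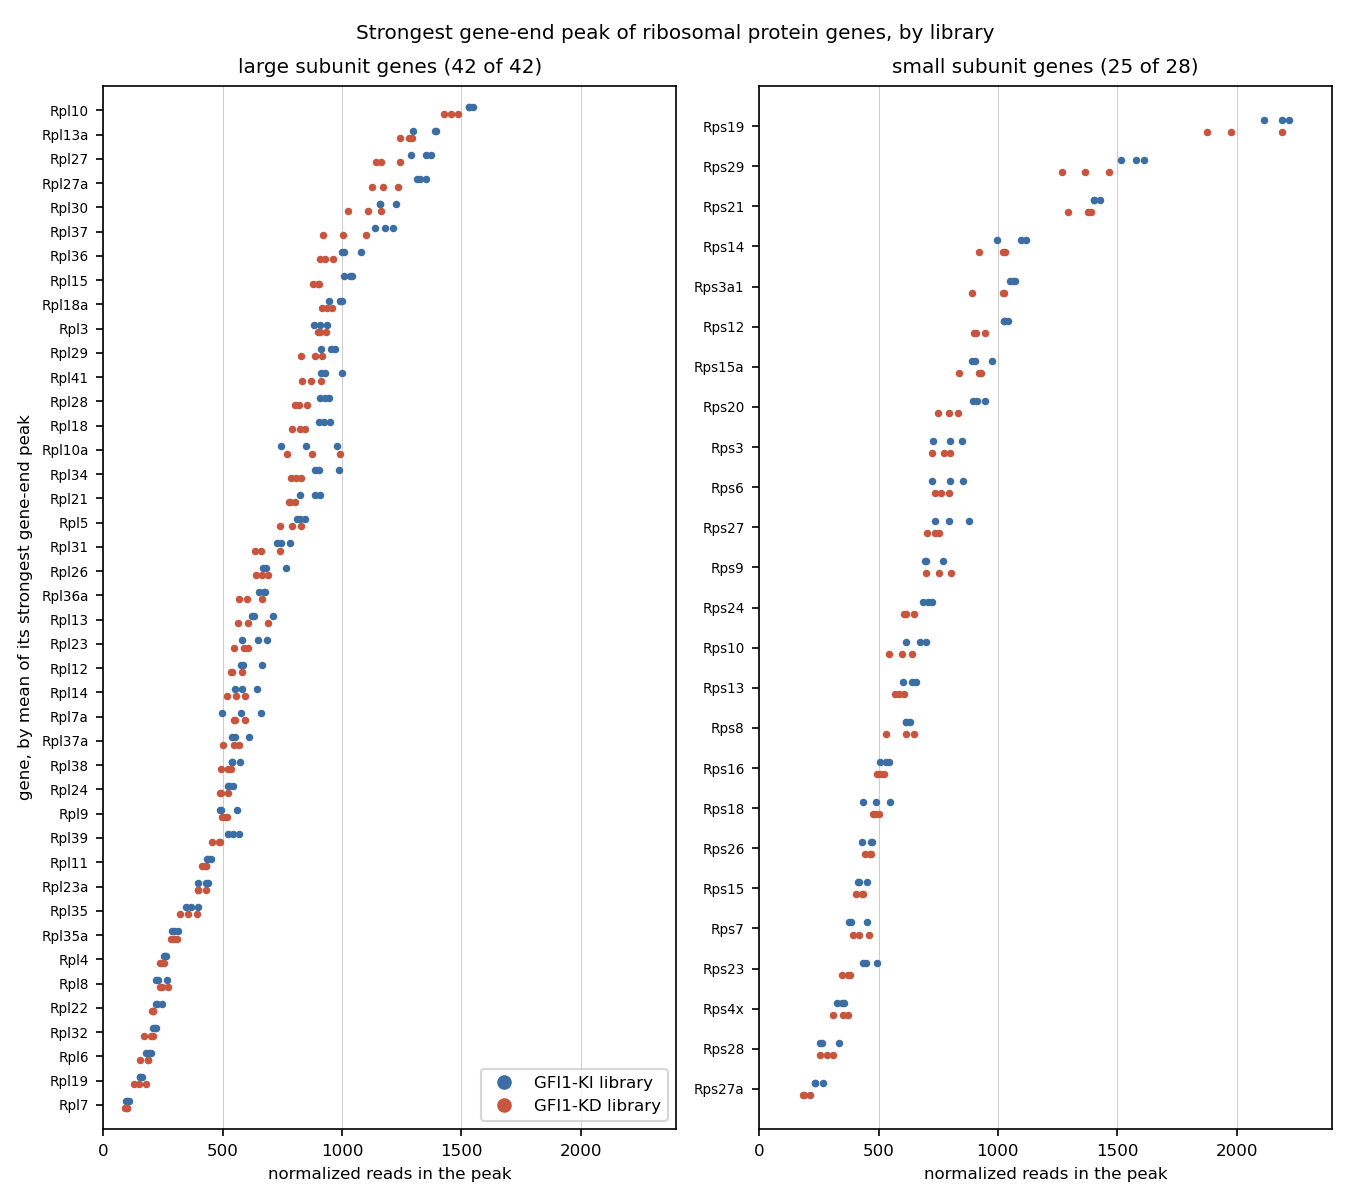
Normalized reads (horizontal axis) in the gene-end peak with the most reads of core ribosomal protein genes, 1 point per library, with 42 large-subunit genes on the left and 25 of 28 small-subunit genes on the right, ordered by their mean. Rps19 lies highest, at 1876 to 2222 in all 6 libraries, and for most genes the GFI1-KD points overlap or lie just left of the GFI1-KI points.

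Between the genotypes, peaks of ribosomal protein genes moved little at the gene ends and more elsewhere, as peaks did over the whole series. The quartiles of the log2 fold change (GFI1-KD over GFI1-KI) were -0.18 and -0.01 at member gene ends, and -0.28 and 0.09 at their other peaks. Over all tested peaks they were -0.21 and 0.06 at gene ends, and -0.27 and 0.22 elsewhere. Of 336 member peaks tested, 20 in 14 genes were called, 10 higher and 10 lower in GFI1-KD, against a background of 10.5% of all 170733 peaks tested (4.99% higher and 5.48% lower). Of 160 at gene ends (8 others had a mean under 10 normalized reads and were not tested), 6 were lower in GFI1-KD and 0 were higher at a limma adjusted p under 0.05, which is 3.75% called, against a background of 8.88% of all 26703 gene-end peaks tested (7.17% lower and 1.71% higher). The lower peaks were 2 of 91 in large-subunit genes, 3 of 63 in small-subunit genes and 1 of 6 in paralogues. At an unadjusted limma p under 0.05 there were 23 of the 160, against 6454 of all 26703 gene-end peaks. The genotypes did not overlap in 37, of which 35 were lower in GFI1-KD, against 30.5% of all gene-end peaks without overlap and 24.9% lower. The largest fold in either direction among the 160, called or not, was 1.44. The count was 3 lower by edgeR's quasi-likelihood test and 0 by DESeq2 on the recovered reads, neither with a peak called higher, where these called 7.91% and 3.66% of all gene-end peaks. It was 0 without GFI1-KI replicate 2 or replicate 3, where the share of all gene-end peaks called fell as well, to 2.29% and 2.26%. It was 2 without GFI1-KD replicate 2 (5.48% of all) and 1 without GFI1-KD replicate 3 (4.81%), and without GFI1-KI replicate 1 it was 5 lower and 2 higher (10.1%).

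The whole distribution of the members sat slightly below 0. Their median log2 fold change (GFI1-KD over GFI1-KI) was -0.09, with 123 of 160 below 0, against -0.10 over all gene-end peaks, and it turned to 0.03 when libraries were scaled to equal totals of reads in gene-end peaks (all gene-end peaks 0.02). That scaling takes out a shift common to the gene ends by construction. It moved the median of all tested peaks from -0.05 to 0.06, and under it 2 member gene-end peaks were called higher and 0 lower. By library, the median of the 74 strongest gene-end peaks was 708, 672 and 683 normalized reads in GFI1-KI and 653, 604 and 628 in GFI1-KD. The GFI1-KD libraries were all lower. Gene-end peaks of the members took 0.293, 0.290 and 0.298% of all reads in peaks in GFI1-KI and 0.284, 0.282 and 0.279% in GFI1-KD, without overlap. All gene-end peaks together took 38.5, 38.7 and 39.5% in GFI1-KI and 37.2, 36.7 and 36.8% in GFI1-KD, also without overlap. As a share of gene-end reads the members took 0.761, 0.748 and 0.754% in GFI1-KI and 0.764, 0.769 and 0.758% in GFI1-KD, which overlap.

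**Figure D2:**
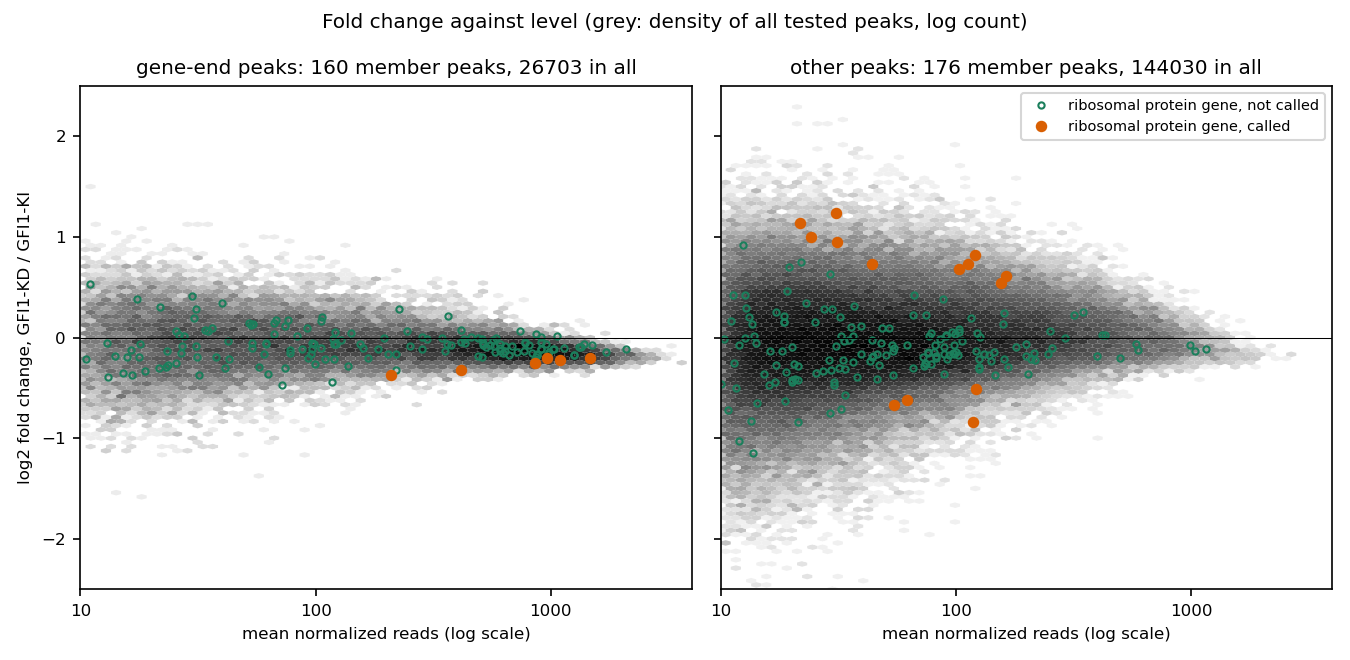
Log2 fold change, GFI1-KD over GFI1-KI (vertical axis), against mean normalized reads on a log scale, for gene-end peaks (left) and other peaks (right); grey shows the density of all tested peaks, circles the member peaks and filled points the called ones. The 160 gene-end circles hug a line just below 0 with 6 called peaks, all lower, while the 14 called peaks elsewhere are spread from -0.84 to 1.24.

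Restricting the view to strong peaks and to promoters gave the same order. Among gene-end peaks averaging 250 normalized reads or more, a level chosen after the data had been seen, 5 of 70 member peaks were called, all lower (7.14%), against 16.2% of 9125. A peak lay over the RefSeq start in 57 of 66 members (86.4%) and in 10622 of 17491 genes (60.7%). Of these promoter peaks 0 were higher and 4 were lower among the members (7.02% called), against a background of 13.8% of 9934, and the median log2 fold change was -0.09 in the members and -0.13 over all genes. The median standard error was 0.08 in the members and 0.09 over all genes. The part of precision in the shares called was not tested.

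The small-subunit genes with a lower gene-end peak were Rps23, Rps29 and Rps19. Rps23 encodes a protein of the decoding centre. Its start peak (chr13:90923023-90923682) held 449, 434 and 495 normalized reads in GFI1-KI and 348, 374 and 381 in GFI1-KD. The genotypes did not overlap, and the log2 fold change was -0.32 ± 0.09 (SE; limma adjusted p = 0.0276). Rps29, a zinc-binding small-subunit protein, had 1514, 1614 and 1581 against 1467, 1269 and 1367 in its gene-end peak (chr12:69158613-69159886), a log2 fold change of -0.20 ± 0.06 (limma adjusted p = 0.0367). For Rps19, the gene most often mutated in Diamond-Blackfan anaemia, the lower peak was a weak one 0.6 kb beyond the far end of the gene (chr7:24890454-24890885). It held 238, 240.2 and 227 normalized reads against 175, 176 and 193, a log2 fold change of -0.37 ± 0.11 (limma adjusted p = 0.0382). The strong Rps19 start peak, whose window is printed above, held 2192, 2115 and 2222 against 2189, 1876 and 1978. There the genotypes overlapped and the peak was not called (-0.11 ± 0.06, limma adjusted p = 0.199).

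Rpl37 and Rpl15 were the large-subunit genes with a lower gene-end peak. Rpl37 encodes a small zinc-binding protein of the large subunit, and its start peak (chr15:5116030-5116749) also touches the body of Card6. It held 1136, 1179 and 1214 normalized reads in GFI1-KI and 1099, 921 and 1002 in GFI1-KD, a log2 fold change of -0.23 ± 0.07 (limma adjusted p = 0.0371). Every GFI1-KD library lay below every GFI1-KI library. Rpl15, a large-subunit protein also mutated in some patients with Diamond-Blackfan anaemia, shares its start peak (chr14:18270887-18271517) with Nkiras1. The values were 1044, 1009 and 1035 against 905, 877 and 900.3, tight within each genotype, and the log2 fold change was -0.20 ± 0.06 (limma adjusted p = 0.0444).

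The smallest p at a gene end belonged to Rpl22l1, the paralogue that can take the place of Rpl22 in the large subunit and whose mRNA Rpl22 binds. Its start peak (chr3:28805242-28806117) held 950.3, 913 and 936 normalized reads in GFI1-KI and 782, 739 and 828 in GFI1-KD. The genotypes were separate, by slightly less than the span of the GFI1-KD libraries, with a log2 fold change of -0.25 ± 0.07 (limma adjusted p = 0.0213). Each of these 6 calls was lost without GFI1-KI replicate 2, without GFI1-KI replicate 3, by DESeq2 and with equal gene-end totals. Those at Rpl15, Rpl37 and Rps29 were also lost by edgeR, these and Rps23 with median-of-ratios scaling, and Rpl15 with equal totals of reads in peaks. The 5 other than Rpl22l1 were also lost without GFI1-KD replicate 3, those at Rps29, Rps19, Rpl37 and Rpl15 without GFI1-KD replicate 2, those at Rps23 and Rps19 without GFI1-KD replicate 1, and those at Rps19 and Rpl15 without GFI1-KI replicate 1. Adjusted p-values ranged from 0.00713 to 0.351 over the alternatives. Just outside the threshold lay, among others, gene-end peaks of Rps20 (means 918 and 792, limma adjusted p = 0.0504), Rpl27a (1329 and 1179, 0.0635) and Rpl27 (1337 and 1184, 0.0654), named after their values were seen.

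Several genes whose loss impairs red cell formation were not called at their strongest gene-end peak. The list is not complete and gives no share of such genes called. Rpl15, for example, named above with the same anaemia, was called lower at its own. Those not called included the small-subunit genes Rps19, Rps24, Rps7, Rps10, Rps26 and Rps14, and the large-subunit genes Rpl5, Rpl11, Rpl35a and Rpl26. Rps14 is lost in a myelodysplastic syndrome with a deleted chromosome arm. Rps24 had 707, 725 and 685 normalized reads in GFI1-KI and 614, 649 and 609 in GFI1-KD. Its genotypes did not overlap, yet the log2 fold change of -0.18 ± 0.07 missed the threshold (limma adjusted p = 0.132). Rps10 had 614, 672 and 701 against 642, 543 and 597 (-0.16 ± 0.08, limma adjusted p = 0.240), and Rps14 had 1117, 998 and 1095 against 1029, 921 and 1020.1 (-0.11 ± 0.07, limma adjusted p = 0.321). In both the genotypes overlapped. Apart from the Rps19 start (-0.11, given above), the other genes named here lay between -0.08 (Rpl26) and 0.07 (Rps7), with Rps26 at 0.00 ± 0.09 and Rpl35a at -0.01 ± 0.10. Rpl5 and Rpl11, which bind Mdm2 together, stood at -0.07 ± 0.07 and -0.06 ± 0.09.

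Among paralogue pairs, Rpl22 differed less than Rpl22l1 in the values, although the difference between them was not tested. The Rpl22 promoter peak held 1169, 1230 and 1228 normalized reads in GFI1-KI and 1143, 1132 and 1086 in GFI1-KD (-0.11 ± 0.06, limma adjusted p = 0.263). Rps27, a zinc-binding small-subunit protein, had 877, 738 and 797 against 754, 736 and 705 in its start peak (-0.13 ± 0.08, limma adjusted p = 0.287). Its p53-inducible paralogue Rps27l had 674, 588 and 604 against 589.6, 531 and 594 in the promoter peak (-0.12 ± 0.08, limma adjusted p = 0.378). The genotypes overlapped for Rps27 and Rps27l and were separate for Rpl22, by less than the spread within GFI1-KI. Rpl3, which reaches towards the peptidyl transferase centre, stood at 909, 884 and 937 against 901, 932 and 906 (0.01 ± 0.07). Its muscle paralogue Rpl3l had no gene-end peak, only 2 weak peaks in its body. Rpl10l and Rpl39l, the mainly testicular paralogues of X-linked Rpl10 and Rpl39, had no gene-end peak either.

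On chromosome X lie 4 members (Rpl10, Rpl36a, Rpl39 and Rps4x), and of their 13 tested peaks 1 was called (7.69%, against 10.5% of all peaks), at a distance from Rpl39. The sources used here do not give the animals' sex. Peaks on chromosome Y held 608, 1 and 865 reads in the GFI1-KI libraries and 0, 499 and 618 in the GFI1-KD libraries, so that 1 library of each genotype had next to none. The part of this in the values of the X-linked genes was not tested. Rpl10, mutated in some T-cell leukaemias, had 1534, 1549.6 and 1531 normalized reads in GFI1-KI and 1486, 1429 and 1458 in GFI1-KD (-0.08 ± 0.05, limma adjusted p = 0.392). Rps4x stood at 357, 348 and 328 against 371, 309 and 351 (-0.01 ± 0.10). At the Rpl39 start the values were 569.7, 542 and 523 against 483, 454 and 487, apart but not called (-0.20 ± 0.08, limma adjusted p = 0.129).

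Away from the gene ends the changes were larger, as over the whole series. The member peaks there were also weaker than at gene ends (median of 52.8 against 156.7 normalized reads). Their median standard error was 0.20, against 0.13 at gene ends. Of 176 other peaks tested, 10 were higher in GFI1-KD and 4 were lower by limma, 7.95% called, against a background of 10.8% of 144030 (5.6% higher and 5.16% lower). They comprised 8 higher and 1 lower of 98 near large-subunit genes, 2 higher and 3 lower of 62 near small-subunit genes, and 0 of 16 near paralogues. Of the 176, 36 had an unadjusted limma p under 0.05 (6 of the 16 near paralogues), against 37009 of all 144030 other peaks. In 51 of the 176 the genotypes did not overlap, 32 of them lower in GFI1-KD, against 28.5% of all other peaks without overlap and 16.0% lower. The median log2 fold change was -0.13, against -0.04 over all other peaks. All 14 called peaks lay outside gene bodies, 2.1 to 24.3 kb from 9 genes, at mean levels of 21.9 to 163 normalized reads. Only Rpl37 had a called gene-end peak as well. With equal totals of gene-end reads the split was 15 higher and 1 lower, and without GFI1-KI replicate 2 or replicate 3 there were 4 and 6 called (4.23% and 4.11% of all peaks). When only peaks averaging 50 or more were fitted, the split was 5 higher and 5 lower of 90. A nearest gene is not shown to be the gene that such a peak serves.

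Rpl37 had 4 of the 14, close together downstream of the gene, all higher in GFI1-KD. The strongest, 7.3 kb from the gene (chr15:5126426-5126785), held 118, 64.0 and 83.8 normalized reads in GFI1-KI and 157, 131 and 171 in GFI1-KD, a log2 fold change of 0.82 ± 0.18 (limma adjusted p = 0.00563). The largest difference was at 10.3 kb (chr15:5129450-5129695), with 20.3, 22.8 and 12.1 against 46.0, 45.7 and 38.8, or 1.24 ± 0.25 (limma adjusted p = 0.00314). At 8.5 kb the values were 18.015, 14.9 and 14.3 against 36.4, 25.9 and 35.5 (0.99 ± 0.26, limma adjusted p = 0.0154), and at 10 kb 43.9, 33.3 and 23.4 against 57.8, 53.1 and 53.2 (0.73 ± 0.22, limma adjusted p = 0.0351). The genotypes did not overlap at any of the 4. A peak among them, at 9 kb, went the other way with 134, 143 and 137 against 122, 96.3 and 118, and was not called (-0.31 ± 0.14, limma adjusted p = 0.169). The next protein-coding gene, Card6, lay 9.9 to 12.9 kb from the called peaks. The 10.3 kb call was kept under every alternative in which the peak was tested. The other 3 were lost without GFI1-KI replicate 2, and those at 8.5 and 10 kb also without GFI1-KI replicate 3 and without GFI1-KD replicates 1 and 3, that at 10 kb also without GFI1-KD replicate 2 and by DESeq2.

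**Figure D3:**
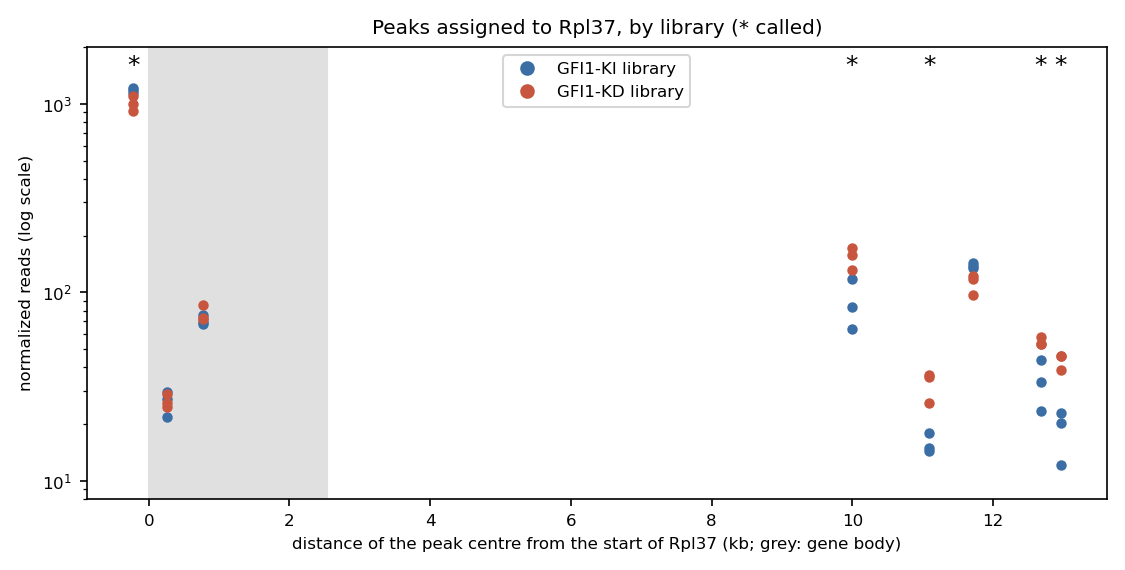
Normalized reads on a log scale in the 8 peaks assigned to Rpl37, against the distance of the peak centre from the gene's start in kb (grey, gene body), 1 point per library. The start peak is lower in GFI1-KD, the 2 weak peaks in the body overlap, and 4 of the 5 peaks downstream are higher in GFI1-KD (stars, called).

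Other large-subunit genes had 5 called peaks at a distance. Near Rpl14 (4.1 kb; Entpd3 is 10.4 kb away) the peak held 100.2, 78.0 and 74.8 normalized reads in GFI1-KI and 146, 121 and 154 in GFI1-KD, 0.73 ± 0.16 (limma adjusted p = 0.00438). Rpl11 had one at 2.7 kb with 99.1, 71.9 and 67.2 against 139, 125 and 115 (0.68 ± 0.16, limma adjusted p = 0.00987) and a weaker one at 13.7 kb, about as far from Eloa, with 18.015, 24.5 and 21.1 against 40.7, 42.0 and 42.1 (0.95 ± 0.22, limma adjusted p = 0.00892). All 3 were higher in GFI1-KD without overlap. Rpl39, which lines the exit tunnel of the ribosome, had a peak at 14.8 kb with 151, 107 and 132 against 193, 205 and 193 (0.61 ± 0.14, limma adjusted p = 0.00626). The only lower one was 13.2 kb from Rpl21, with 49.5, 78.0 and 77.0 against 43.9, 42.0 and 38.8 (-0.67 ± 0.20, limma adjusted p = 0.0324). The calls at Rpl14 and at 13.7 kb from Rpl11 were kept in all alternatives that tested them. Those at Rpl39, Rpl21 and 2.7 kb from Rpl11 were lost without GFI1-KI replicate 2, the last pair also without GFI1-KI replicate 3, and that at Rpl21 also without GFI1-KD replicate 2 or replicate 3, by DESeq2 and with equal gene-end totals.

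Small-subunit genes had the other 5. The smallest p of all member peaks was 2.1 kb upstream of Rps10 (chr17:27637363-27637712), a gene of Diamond-Blackfan anaemia, with 167, 168 and 120.1 normalized reads in GFI1-KI and 96.3, 87.6 and 68.7 in GFI1-KD. It was lower without overlap, at -0.84 ± 0.16 (limma adjusted p = 0.00238), and was kept under all 17 alternative fits. Near Rps13 (7.6 kb) 66.4, 85.0 and 75.5 stood against 48.1, 54.3 and 44.4 (-0.62 ± 0.18, limma adjusted p = 0.0283). Rps20 had a higher peak at 6.4 kb, with 143, 117 and 120.1 against 173, 195 and 186 (0.54 ± 0.13, limma adjusted p = 0.00977). Rps3, which forms part of the mRNA entry channel, had neighbouring peaks with opposite signs: at 23.5 kb 18.015, 8.76 and 12.8 against 42.8, 21.0 and 27.7 (1.14 ± 0.31, limma adjusted p = 0.0220), and at 24.3 kb 129, 158 and 141 against 81.3, 117 and 104 (-0.51 ± 0.15, limma adjusted p = 0.0358). Both lie nearly as close to Arrb1 (27.6 and 26.6 kb). The calls at Rps13, Rps20 and Rps3 were lost without GFI1-KI replicate 2 and without GFI1-KI replicate 3, those at Rps13 and Rps3 also without GFI1-KD replicate 3, and those at Rps3 also without GFI1-KD replicate 1. DESeq2 and equal gene-end totals lost the calls at Rps13 and 24.3 kb from Rps3, and equal totals of reads in peaks the latter.

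**Figure D4:**
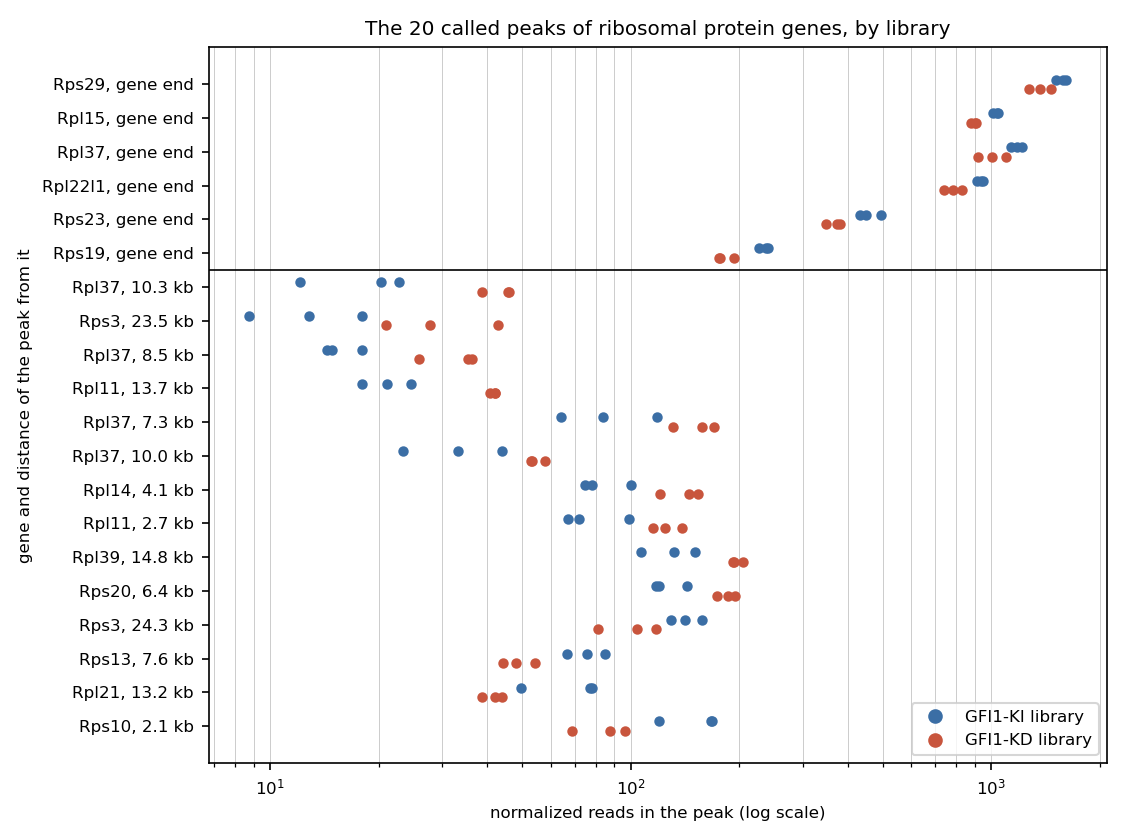
Normalized reads on a log scale in the 20 called peaks of ribosomal protein genes, 1 point per library, with the 6 gene-end peaks above the line and the 14 others, labelled by their distance from the gene, below. In every row the genotypes are separate; at gene ends the shift is small and always to lower values in GFI1-KD, and elsewhere 10 of 14 shift to higher values.

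Some letters were more frequent in the promoters of the members than over all open promoters, though each of these was found in a minority of the members. Over the 300 bases of each RefSeq window (250 before the start and 50 from it), the ZBED1-like TCGCGA was found in 13 of 57 members with a peak in the window (22.8%), against 5.22% of 10957 genes with one. It is printed in capitals in the Rps19, Rpl26 and Rps15a windows, and stands at 2 places in that of Rps19. The ETS/GABP-like CCGGAAG was found in 21 (36.8% against 17.3%), among them Rpl15 and Rpl37 of the genes with a lower start peak, and the YY1-like AAGATGG in 9 (15.8% against 6.67%). C or T at the annotated start and the next 4 bases was found in 14 (24.6% against 3.797%), a measure that depends on the exact base annotated. The SP1-like GGGCGG (63.2% against 66.7%) and the GFI1 core letters AATCAC, searched on both strands (7.02% against 8.06%, 4 members), were about as frequent as in other open promoters. TATAAA on the sense strand was found in 5 members (8.77% against 4.20%), Rpl22l1 among them. These shares are descriptions, with no test, of windows chosen by gene name.

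Genes that work with the ribosomal proteins had median log2 fold changes between -0.09 and -0.08 at their ends in each list, against -0.10 over all gene-end peaks. The shares called are read against the backgrounds of 8.88% at gene ends and 10.8% elsewhere, with no test of the lists. Cytosolic ribosomal proteins under other names (such as Rpsa, Rplp0 and Fau) had 0 of 9 gene-end peaks called (0 at an unadjusted p under 0.05) and 0 of 12 others. Mitochondrial ribosomal proteins, which build the ribosome of another compartment, had 1 higher and 4 lower of 143 gene-end peaks (3.50%) and 12 higher and 11 lower of 206 others (11.2%). Ribosome assembly genes, such as those of RNA polymerase I and the nucleolar proteins Ncl, Npm1 and Fbl, had 1 higher and 7 lower of 100 gene-end peaks (8.0%), and 4 higher and 11 lower of 175 others (8.57%). Translation factors and other genes with terminal oligopyrimidine mRNAs, such as Eef1a1 and Tpt1, had 3 lower of 39 gene-end peaks (7.69%) and 3 higher and 3 lower of 95 others (6.32%). At gene ends the assembly and oligopyrimidine lists were thus near the background, and the members and mitochondrial ribosomal proteins below it.

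The size of the small common shift at the gene ends depended on how libraries were scaled. It lay below 0 under every setting except equal gene-end totals. That scaling takes out a shift common to the gene ends by construction, so the sign under it cannot decide the direction. The members followed all gene-end peaks under each setting, with a difference between the medians of at most 0.02 on the log2 scale. Among gene-end peaks averaging 250 normalized reads or more, the medians as reported lay further apart, at -0.09 in the members and -0.13 in all. Of the gene-end peaks called over the whole series, 19.2% were higher in GFI1-KD as deposited, 35.6% with median-of-ratios scaling, 30.3% with equal totals of reads in peaks and 64.6% with equal totals in gene-end peaks.

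**Figure D5:**
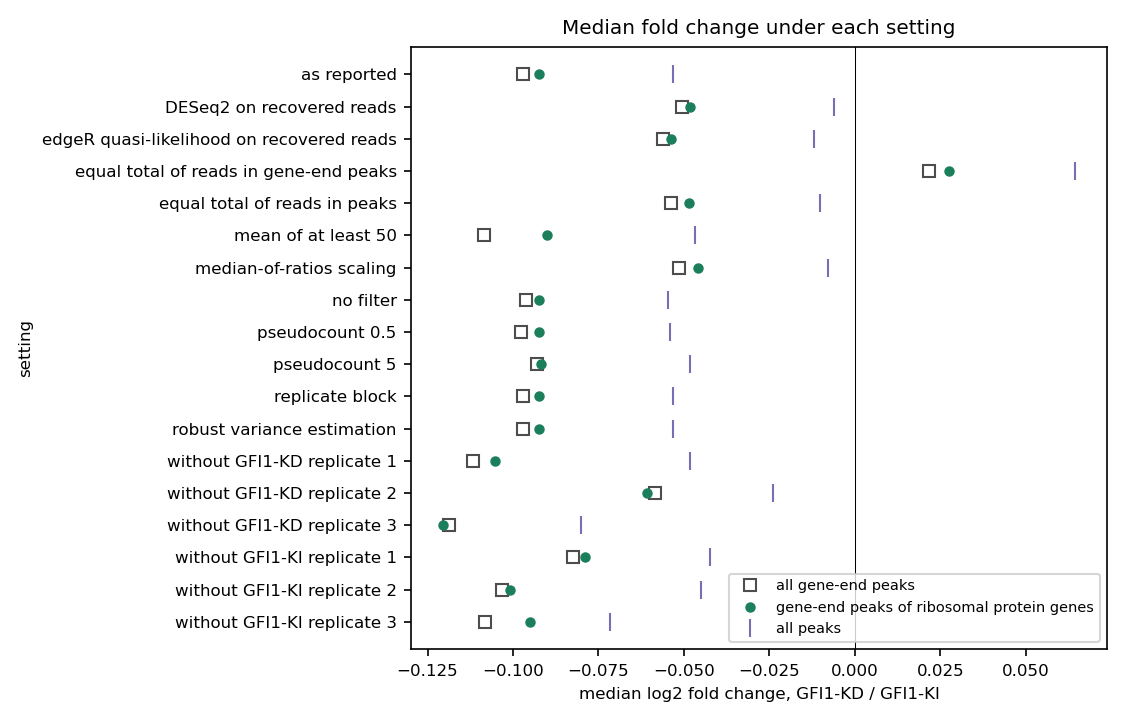
Median log2 fold change, GFI1-KD over GFI1-KI (horizontal axis), of the members' gene-end peaks (points), all gene-end peaks (squares) and all peaks (ticks) under each setting. Points and squares move together from -0.12 to 0.03, and only scaling to equal gene-end totals places them above 0.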

How the data were processed

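ATAC-seq of sorted GMPs was measured in 3 GFI1-KI and 3 GFI1-KD libraries. For each peak of a consensus set the authors deposited a normalized read count, a coverage signal; judging by the values, it is the library's count times a constant. Build mm10 and the tools HOMER, ChIPseeker, DiffBind, MACS2, Picard, SAMtools, BWA and Trim Galore are named in the submitters' processing notes. Tool versions and roles, any shift of reads for the transposase and the origin of the constants were not given in the sources used here. Table columns named WT were taken as GFI1-KI, the genotype that the series title calls wildtype, with matching numbers.

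All values in each column were whole multiples of 1 step (100% at a tolerance of 0.01 reads, steps 0.7552 to 1.2342), so reads could be recovered. On these reads edgeR's quasi-likelihood test called 21516 peaks and DESeq2 10819. Chromosome codes were read in alphabetical order of names, which placed 16.0% of peaks within 1 kb of a gene end, against 2.62% in numeric order over 18 codes that differ. Gene bodies and promoter sequences came from RefSeq (GRCm38.p6), and gene bodies carry no strand.

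Those peaks whose mean reached 10 normalized reads (170733 of 182166) were fitted on log2(value + 1) in limma 3.58.1 under R 4.3.3, using its variance trend, all 6 libraries and no replicate block. Fold changes are on that scale and understate changes of low peaks. Adjustment followed Benjamini and Hochberg over all tested peaks, the threshold was 0.05, and the script was tested on simulated data. Peaks named are the called member peaks, those of smallest p, the 6 highest and 4 lowest per kb at gene ends, and those of anaemia genes, paralogue pairs and Rps4x; others were named after their values were seen, and some that the rule takes are not reported here. The members, gene lists, motifs and tests were chosen with earlier results of these data known. Alternatives were other scalings, pseudocounts, filters, thresholds and distances, robust variance estimation, a replicate block, edgeR 4.0.16, DESeq2 1.42.0 and leaving out each library; counting start-side peaks alone was added after seeing the data. Tables used pandas 2.3.3 and numpy 2.4.6 under Python 3.11.15, and figures matplotlib 3.10.9. Value columns not used numbered 0.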

Additional observations from a re-analysis of the deposited data

How the results depend on the processing

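As reported, 17872 peaks of the whole series, 6 gene-end peaks and 14 other peaks of the members were called, and the members' gene-end median was -0.09. DESeq2 called 10819 peaks in all and 0 member gene-end peaks, and edgeR 3 of the latter. Median-of-ratios scaling called 2, both lower in GFI1-KD, while equal totals of gene-end reads called 2, both higher, with the median at 0.0276. At a threshold of 0.01 the counts were 6896, 0 and 8, and within 10 kb the other peaks called were 7. Leaving out 1 library gave 6996 to 22153 peaks in all, 0 to 8 at member gene ends and 4 to 21 elsewhere, and medians of -0.12 to -0.06. What in the left-out libraries moved the counts was not tested. Counts under the other pseudocounts, filters and gene-end distance, equal totals of reads in peaks, robust variance estimation and start-side peaks alone stayed within 1.5 times, but with a mean of at least 50 the other member peaks went from 10 higher and 4 lower to 5 and 5. Of the whole series' calls, 47.7% were higher as deposited, 60.1% with median-of-ratios scaling, 58.6% with equal totals of reads in peaks and 74.97% with equal gene-end totals. With the replicate block, 8 gene-end and 14 other member peaks were called; same-numbered libraries deviated with correlations of -0.0238, -0.0383 and 0.0563, so the numbers are not shown to pair samples. Over 42 named peaks, 589 of 707 alternative values kept direction and side of the threshold, 83 lost the call, 3 gained it and 32, in 15 uncalled peaks, changed sign; 0 of these were in called peaks. With equal gene-end totals the log2 fold changes became 0.0427 (Rpl10), 0.0607 (Rpl11), 0.0254 (Rpl13a), 0.0551 (Rpl19), 0.0366 (Rpl26), 0.107 (Rpl35a), 0.0478 (Rpl37a), 0.0457 (Rpl5), 0.0078 (Rps14), 0.0059 (Rps19 start), 0.0591 (Rps21) and 0.115 (Rps4x). Rpl35a and Rps4x, near 0 as reported, turned to 0.0322 and 0.0453 by DESeq2, 0.0266 and 0.0400 by edgeR, 0.0315 and 0.0387 with equal totals in peaks, and 0.0339 and 0.0411 with median-of-ratios scaling. Leaving out 1 library spread the values of 6 uncalled peaks across 0: -0.186 to 0.0529 for Rpl19, -0.0157 to 0.0268 for Rpl3, -0.0450 to 0.0199 for Rpl35a, -0.0408 to 0.0287 for Rps26, -0.4498 to 0.0869 for the weak Rps27l peak and -0.0627 to 0.0704 for Rps4x. With 3 libraries per genotype, the median standard error at member gene ends was 0.13. Shifts of single weak peaks well above that size could also go uncalled, such as -0.47 at a gene-end peak of Rpl19 (limma adjusted p = 0.0984).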
